A study of Rattus norvegicus with 6 samples.

Results

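The miR-322/miR-503 cluster is a row of miRNA hairpins on the X chromosome of the rat, and its miRNAs were measured in rat tendon-derived stem cells (rTDSCs) under mechanical loading and without it. Its members here are the 5 array miRNAs with the systematic names rno-miR-322, rno-miR-503, rno-miR-351, rno-miR-542-3p and rno-miR-450a, of 677 miRNAs on the array, matched by name and without the star arms. On the 6 arrays, miR-322 was measured on every array and lay slightly higher under mechanical loading, by a difference that did not pass adjustment for the miRNAs tested. The signals of miR-503, miR-542-3p and miR-450a were close to background and their groups overlapped, and miR-351 was not detected on any array.

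The rTDSCs came from the patellar tendon of male Sprague Dawley rats, 8 weeks old per the study's methods, and were used at passage 3. No genetic change and no drug is named for either group. The 3 mechanical loading samples were stretched on collagen I-coated silicone plates for 7 days along a single axis, at 10% elongation and 0.5 Hz for 8 h per day, and the 3 non-loading samples were kept static on the same kind of plate for the same time. Colonies were mixed when the cells were first passaged, and the labels do not say whether the replicates came from separate animals or cultures, so the p-values measure only the spread between these samples, which may be technical. The arrays were compared to find miRNAs that respond to stretch under a regimen used to drive the cells towards cartilage and bone fates.

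A hairpin is cut into a short duplex, and the strand loaded into an Argonaute protein guides it to mRNAs that pair with the seed, the bases near the 5′ end of the strand. miRNAs with the same seed can therefore bind overlapping sets of mRNAs. miR-322, the rat counterpart of human miR-424, and miR-503 belong to the extended miR-15/16 family, which is known for repressing cyclins and other drivers of cell division, and both are known to rise when myoblasts leave the cell cycle and differentiate.

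In the RefSeq sequences, of assembly GRCr8, the 6 hairpins Mir322, Mir503, Mir351, Mir542, Mir450b-1 and Mir450a1 follow each other in this order on the minus strand of chrX:137720933-137726241, a span of 5309 bases. The array was annotated on the older build rn4, and none of its coordinates were used. The 5 members are given as mature miRNAs, because the seed groups that order the results can be read from them. Sequences run 5′ to 3′ and the capitals mark the seed, bases 2 to 8. Array names without an arm were read as the 5p arm, since the partner arm carries a star.
miR-322: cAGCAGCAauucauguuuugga
miR-503: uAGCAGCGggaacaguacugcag
miR-351: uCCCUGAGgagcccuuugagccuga
miR-542-3p: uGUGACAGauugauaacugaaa
miR-450a: uUUUGCGAuguguuccuaaugu

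By bases 2 to 7 the members fell into 4 seed groups, with miR-322 and miR-503 in the same one. The seeds of miR-322 and miR-503 differ at 1 base, A8G, counted from 1 at the 5′ end, with the base of miR-322 first. Among the 724 mature rat miRNAs of the RefSeq table, miR-322 shares its whole seed with 4 others, all of the miR-15/16 family and encoded outside the cluster. miR-351 has the seed of 2 miRNAs of the miR-125 family, the vertebrate relatives of lin-4, while miR-450a shares its own only with miR-450b-5p of the preceding hairpin. The seeds of miR-503 and miR-542-3p were found in no other mature miRNA of the table. The relatives outside the cluster that the array carries have these sequences, with the seed in capitals again so that the shared part can be seen.
miR-15b: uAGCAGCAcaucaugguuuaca
miR-16: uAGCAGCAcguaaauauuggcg
miR-195: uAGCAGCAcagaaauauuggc
miR-497: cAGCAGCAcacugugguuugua
miR-125a-5p: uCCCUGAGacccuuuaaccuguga
miR-125b-5p: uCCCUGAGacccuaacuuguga

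Each sample was hybridised in 1 colour to 1 array, and an array held 13540 miRNA spots. A member had 20 spots per array, from 2 probes of 10 spots each, apart from miR-351 with 4 probes of 5 spots. Signals are given as a percentage of the 75th percentile that each array showed for the probes measured throughout, which was 275.1, 304.1 and 362.2 intensity units on non-loading arrays 1, 2 and 3 and 319.3, 262.6 and 324.4 units on loading arrays 1, 2 and 3. On this scale the mean of the 434 negative-control spots lay between 0.784% and 1.49%. A level on the log2 scale is log2 of the summed probes of a miRNA over the same percentile, with a floor of 1.87%. The number of miRNAs that the scanner software called detected was not equal between the arrays, at 153, 176 and 140 without loading and 186, 145 and 178 with loading. Levels of different miRNAs are not set against each other, since a probe's brightness depends on its sequence, and the number of arrays limits the precision of each value.

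The arrays showed most of the miRNAs that mark mesenchymal cells. Of 6 mesenchymal or fibroblast miRNAs, 5 (miR-21, miR-143, miR-199a-3p, miR-199a-5p and miR-214) were detected on all 6 arrays and miR-145 on 3. The 6 muscle miRNAs, miR-1, miR-133a, miR-133b, miR-206, miR-208 and miR-499, were detected on 0 arrays, as were the 5 epithelial ones of the miR-200 family and miR-205, and the hepatocyte miRNA miR-122. Of 5 blood cell miRNAs, only miR-223 of myeloid cells was detected, on 5 arrays, with a log2 change under loading of 0.40 (standard error 0.22, with an adjusted p of 0.709 from limma). The endothelial miR-126 was detected on 6 arrays, where loading was higher by 0.25 on the log2 scale (standard error 0.25, with an adjusted p of 0.724 from limma), and of 3 neuronal miRNAs only miR-128 was, with -0.07 (limma adjusted p = 0.736). The part of such cells in the values below was not tested.

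**Figure D1:**
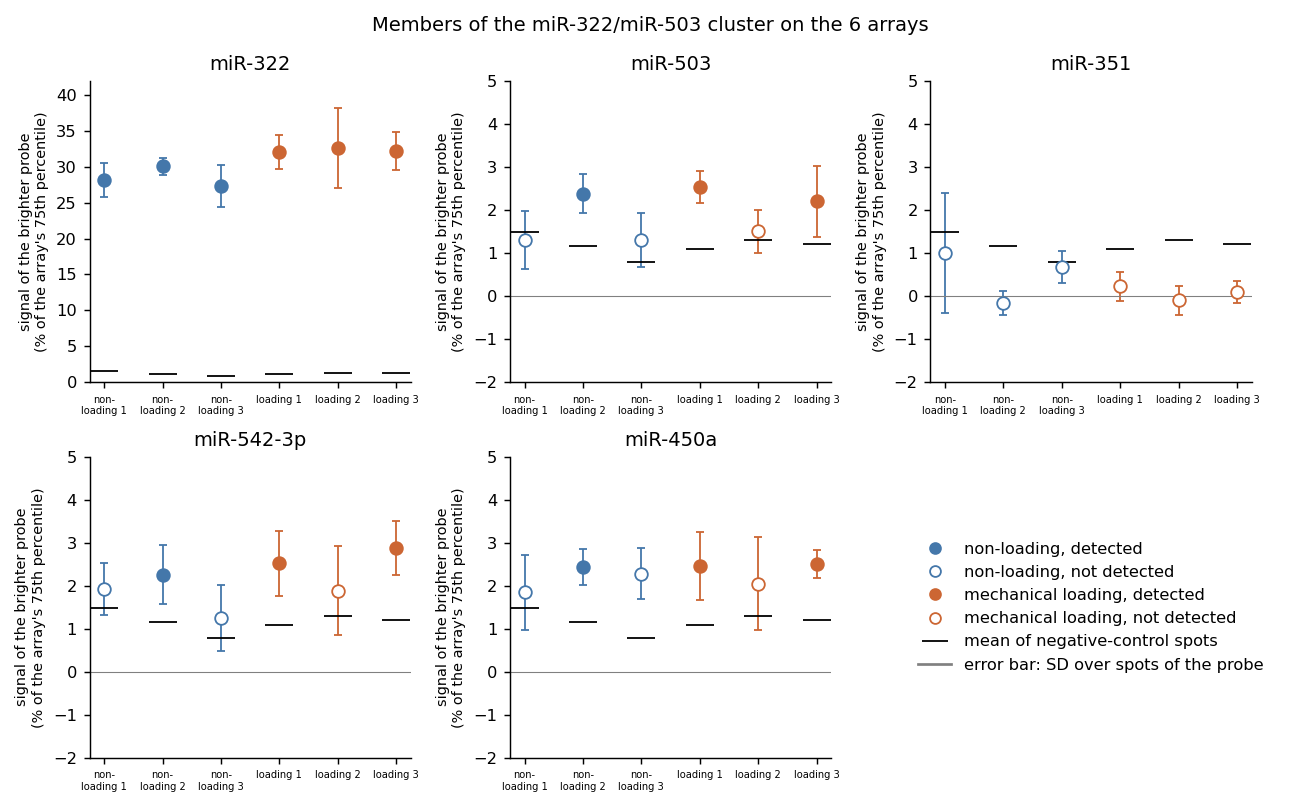
Signal of the brighter probe of each cluster member on each of the 6 arrays, as a percentage of the array's 75th percentile, with error bars for the SD over the spots of the probe, black lines for the mean of the negative-control spots, and filled circles where the scanner software detected the miRNA. miR-322 lay between 27.3% and 32.7%, far above the negative controls, while miR-503, miR-542-3p and miR-450a lay between 1.25% and 2.88% and miR-351 at 1.00% or less.

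Of the members, only miR-322 passed the detection filter of the limma test. Its scaled signal, summed over both probes, was 36.9%, 40.9% and 37.9% on non-loading arrays 1, 2 and 3 and 45.1%, 44.0% and 44.1% on loading arrays 1, 2 and 3. All values under loading exceeded all values without it, and the loading arrays were close together. On the log2 scale the levels were -1.44, -1.29 and -1.40 without loading and -1.15, -1.19 and -1.18 with loading, or -1.38 ± 0.08 (SD, n = 3) and -1.17 ± 0.02 (SD, n = 3). The difference was 0.20 (standard error 0.08, 95% interval 0.02 to 0.39), a scaled signal 1.15-fold higher under loading (95% interval 1.01 to 1.31). In limma its unadjusted p was 0.0367, rank 11 of the 148 miRNAs tested, and its adjusted p was 0.486. The higher level under loading thus did not pass the adjusted threshold of 0.05. In these bulk samples, more cells that express a miRNA and more of it per cell cannot be told apart.

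Many miRNAs of the array moved as far. The adjusted threshold was passed by 0 of the 148 miRNAs in limma (0%, with 14 at an unadjusted p under 0.05), and the smallest adjusted p was 0.0551. An unadjusted p under 0.05 with a higher level under loading was reached by 8.78% of the miRNAs tested, among them miR-322, with a lower level by 0.676%, and in either direction by 9.46%. The groups did not overlap, with loading higher, for 12.8% of them. For miR-322 alone the exact permutation test over the arrays gave a two-sided p of 0.1, the smallest that 3 arrays against 3 allow. The median change of all miRNAs tested was 0.06 and 66.9% of the changes were positive, so that miR-322 stood 0.14 above the median. An upward change larger than that of miR-322 was found for 25 miRNAs.

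Both probes of miR-322 were clearly measured and gave the same order of the groups, as the plot of single spots shows. Well above background were 120 of 120 spots. The brighter probe (A_26_P00001002) gave 28.2%, 30.1% and 27.3% without loading and 32.1%, 32.7% and 32.3% with loading, a log2 change of 0.18 (exact permutation test, two-sided p = 0.1). The dimmer probe (A_26_P00001001) gave 8.73%, 10.8% and 10.6% without loading and 13.0%, 11.3% and 11.8% with loading, a log2 change of 0.26 (exact permutation test, two-sided p = 0.1). The groups did not overlap on either probe. Before scaling they did overlap, since the summed intensity was 101.5, 124.4 and 137.3 units without loading and 144.0, 115.5 and 143.0 units with loading. Loading array 2, the one below 2 of the non-loading arrays, also had the lowest 75th percentile of the 6 arrays.

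**Figure D2:**
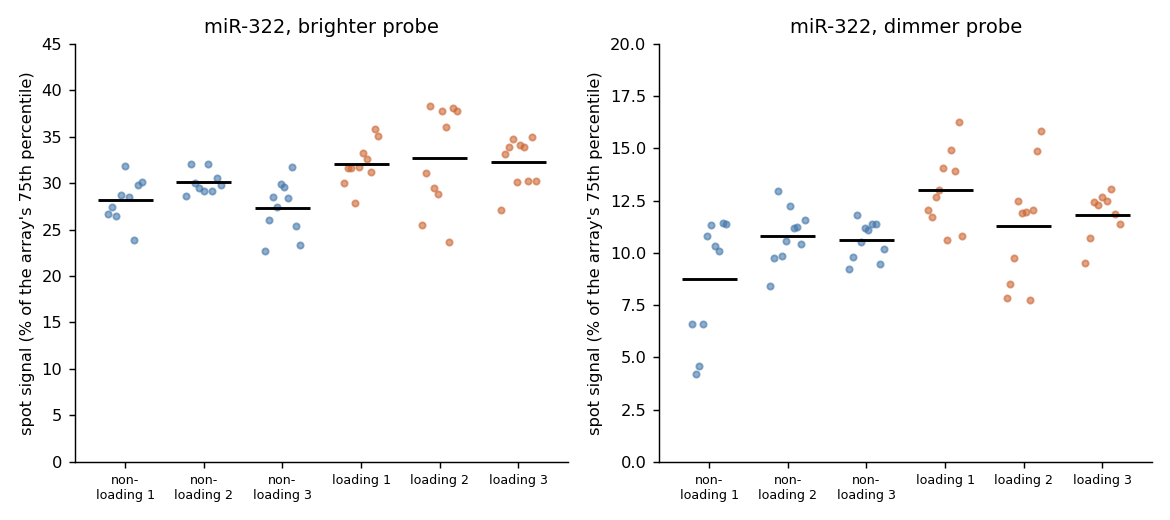
Signal of every spot of miR-322 used, as a percentage of the array's 75th percentile, on the 6 arrays, with black lines for the mean of each array, for the brighter probe on the left and the dimmer probe on the right. The array means of the loading group (32.1% to 32.7% and 11.3% to 13.0%) lay above those of the non-loading group (27.3% to 30.1% and 8.73% to 10.8%), while single spots of the groups overlapped.

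Slide positions were read from the names of the scans, and the sample labels do not give them. By these names all 6 arrays lay on 1 slide. The non-loading arrays and loading array 1 were in row 1 and the other loading arrays in row 2. Within row 1, miR-322 on loading array 1 was 0.23 above the mean of the non-loading arrays on the log2 scale. In column 1, loading array 2 was 0.25 above non-loading array 1, and in column 2, loading array 3 was 0.11 above non-loading array 2. Row 2 held loading samples alone. In limma with the slide row as a block the change was 0.23, and its unadjusted p rose to 0.115 (adjusted p = 0.775). With the slide column as a block the change was 0.18, with an unadjusted p of 0.108 (adjusted p = 0.464), so the unadjusted p of miR-322 was under 0.05 with neither block.

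The direction of miR-322 depended on the background correction, as the plot of the processing settings shows. With normexp, a model-based background correction, the change turned to -0.27, with overlapping groups, while the median of all miRNAs tested fell to -0.45. When outlying background values were replaced before normexp, the change was 0.12 without overlap, and the median of all miRNAs 0.04. In the other settings tried the change was positive. The groups also overlapped in 4 other settings. The change was 0.05 when arrays were scaled by the percentile over all probes, where the median of all miRNAs was -0.09, and 0.15 without scaling. It was 0.21 with arrays centred on their median and 0.10 with the total signal per miRNA given by the scanner software.

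**Figure D3:**
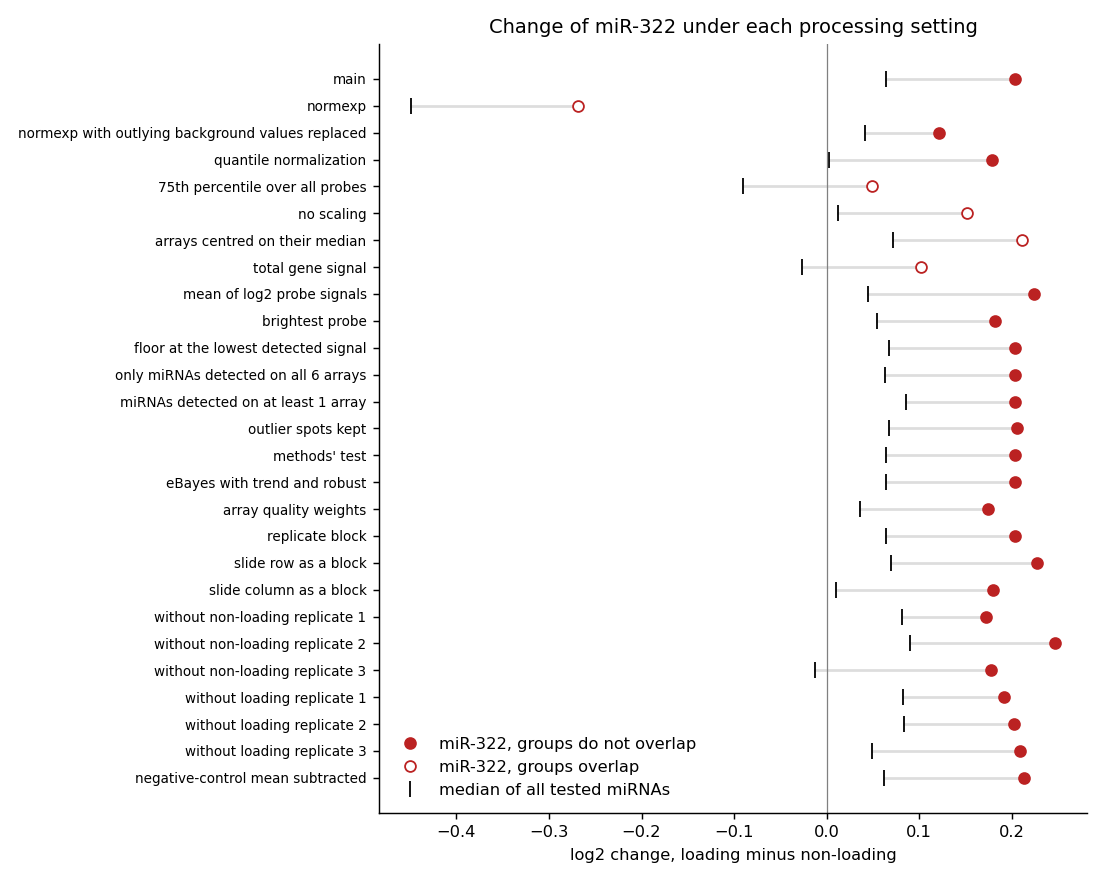
Log2 change of miR-322, loading minus non-loading, under each processing setting (circles, filled where the groups do not overlap), with the median change of all miRNAs tested in that setting (black ticks). The change was 0.20 in the reported setting, stood above the median of all miRNAs in each setting and was negative, at -0.27, only with normexp.

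Of the miRNAs outside the cluster that share the seed of miR-322, 1 had a positive change and 3 a negative one, and none passed the adjusted threshold. All 4 on the array, miR-15b, miR-16, miR-195 and miR-497, were detected on all 6 arrays; miR-15a was not on it. Their log2 changes were 0.08 for miR-15b (standard error 0.10), -0.08 for miR-16 (0.08), -0.10 for miR-195 (0.09) and -0.11 for miR-497 (0.12), with a median of -0.09 against 0.06 for all miRNAs tested. This median ran from -0.27 to -0.0026 over 19 other processing settings, the lowest with normexp, where miR-322 was at -0.27 as well, and from -0.14 without non-loading array 3 to -0.041 without non-loading array 1. The split of signs depended on the processing. The change of miR-15b was positive in 15 of 20 other settings and was -0.016 without non-loading array 3. miR-16 turned to 0.21 with normexp, and miR-195 to 0.0019 when outlying background values were replaced first. In limma 0 of the 4 reached an unadjusted p under 0.05, which 9.46% of all miRNAs tested did. miR-497 reached one with the slide column as a block, with a change of -0.23 (unadjusted p = 0.0435), and without non-loading array 3, with -0.23 (unadjusted p = 0.0466) and no overlap of the groups. Its change shrank to -0.029 without non-loading array 1 and to -0.0071 with normexp after outlying background values were replaced. miR-16, the family's founding member with miR-15a, was the one whose groups did not overlap, with log2 levels of 3.11, 3.01 and 3.03 without loading and 2.89, 3.00 and 3.00 with loading. Loading array 1 was its lowest, and the other loading arrays were just below non-loading array 2 (exact permutation test, two-sided p = 0.1; limma adjusted p = 0.724). The groups of miR-16 overlapped in 8 of these 19 settings and with 2 of the 6 arrays left out in turn, non-loading array 3 and loading array 2. Groups that do not overlap with loading lower were found for 2.7% of the miRNAs tested. Whether miR-322 and its seed relatives differ in their response was not tested.

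The relatives of miR-351 were both measured, whereas miR-351 itself was not. miR-125a-5p had log2 levels of -0.58, -0.49 and -0.62 without loading and -0.43, -0.29 and -0.36 with loading, so the groups did not overlap (exact permutation test, two-sided p = 0.1). Its change was 0.20 (standard error 0.08, 95% interval 0.01 to 0.40, limma unadjusted p = 0.0443 and adjusted p = 0.486). With the slide row as a block the change was 0.13, with an unadjusted p of 0.321, and the unadjusted p was 0.0755 with the slide column as a block and 0.0926 with the replicate block, all in limma. Its groups overlapped in 4 of 19 other processing settings. Among these, the change turned to -0.15 with normexp and was 0.049 with scaling over all probes. miR-125b-5p, which is known to be abundant in mesenchymal cells, had a change of 0.11 (standard error 0.09, limma adjusted p = 0.724), and its groups overlapped. Neither passed the adjusted threshold.

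**Figure D4:**
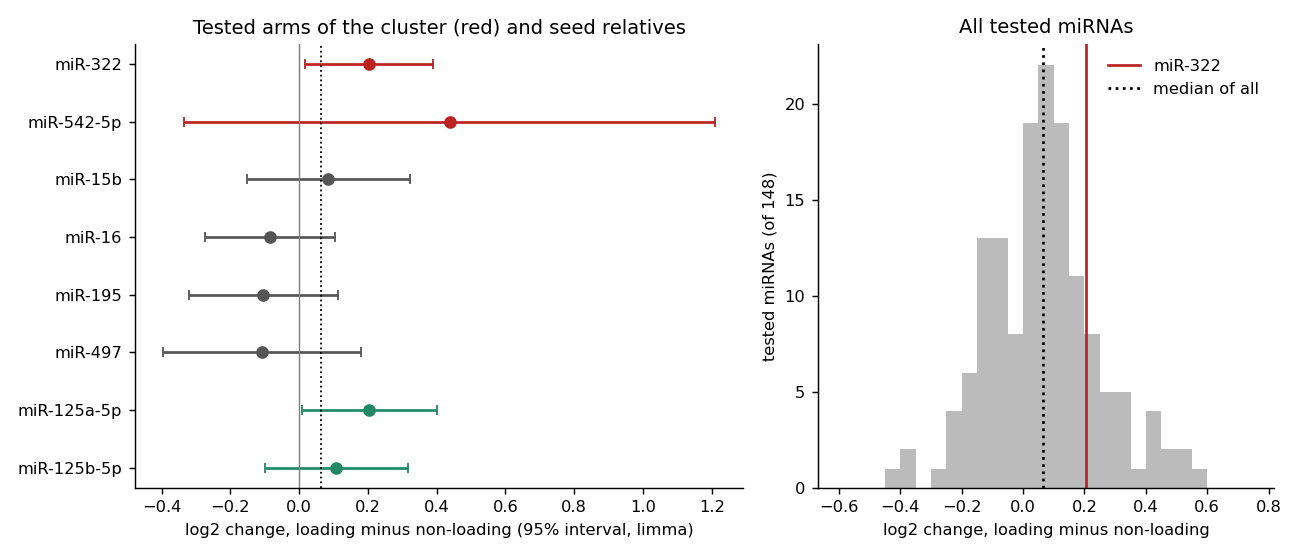
Left, log2 change under loading with its 95% interval from limma for the tested arms of the cluster (red), the seed relatives of miR-322 (grey) and those of miR-351 (green), with the median of all miRNAs as a dotted line; right, the changes of all 148 miRNAs tested, with miR-322 as a red line. The intervals of miR-322 and miR-125a-5p lay just above 0 and those of the other 6 included 0, miR-542-5p with 1 array set to the floor, and miR-322 lay within the upper part of the distribution.

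miR-503, the neighbour of miR-322 that differs from it by 1 seed base, was near background. Its brighter probe (A_26_P00001729) gave 1.30%, 2.38% and 1.30% on non-loading arrays 1, 2 and 3 and 2.54%, 1.51% and 2.21% on loading arrays 1, 2 and 3. Non-loading array 2 and loading arrays 1 and 3 were high, the other 3 were low, and the groups overlapped. The means were 1.66% ± 0.625 (SD, n = 3) and 2.08% ± 0.527 (SD, n = 3), and the exact permutation test gave a two-sided p of 0.3. No fold is read from the dim members, since their values lay close to those of the negative-control spots, and for miR-503 below them on non-loading array 1. Of its 60 spots 7 were well above background, 6 of them on loading array 1, and its other probe lay below 0 on every array.

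miR-542-3p, known to target the apoptosis inhibitor survivin, was highest on the same 3 arrays. The brighter probe (A_26_P00001658) gave 1.92%, 2.26% and 1.25% without loading and 2.53%, 1.88% and 2.88% with loading. Loading arrays 1 and 3 were highest and loading array 2 lay below 2 non-loading arrays, so the groups overlapped. The means were 1.81% ± 0.512 (SD, n = 3) and 2.43% ± 0.505 (SD, n = 3), for which exact permutation gave a two-sided p of 0.3. Of 60 spots 10 were well above background, 5 of them on loading array 1, and the other probe lay below 0 on every array. miR-542-3p is among the names of the study's heat map, which was drawn from these same samples, so its listing there is not independent evidence of a direction.

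miR-450a, from the last hairpin of the row, was highest on these 3 arrays too. Its brighter probe (A_26_P00002801) gave 1.84%, 2.44% and 2.28% without loading and 2.46%, 2.05% and 2.50% with loading, and the groups overlapped. The means were 2.19% ± 0.307 (SD, n = 3) and 2.34% ± 0.252 (SD, n = 3), with a two-sided p of 0.5 by exact permutation. There were 6 of 60 spots well above background, 4 on loading array 1 and 2 on non-loading array 2. The other probe of miR-450a lay below 0 on every array.

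miR-351 had 0 of 120 spots well above background and was called detected on 0 arrays. The brightest of its 4 probes (A_26_P00001140) gave 1.00%, -0.17% and 0.67% without loading and 0.23%, -0.10% and 0.10% with loading. On every array the value was below the mean of the negative-control spots of that array. A level below the background of the array cannot be told from none. In the whole array 71.9% of the miRNAs were detected on no array and 19.6%, among them miR-322, on all 6.

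The dim members shared 1 pattern of detection. miR-503, miR-542-3p and miR-450a were each called detected on non-loading array 2 and loading arrays 1 and 3, and on no other array. These are the 3 arrays on which most miRNAs were detected (176, 186 and 178), and 17 of the 677 miRNAs (2.51%) had exactly this pattern. This share is low in part because the 71.9% detected on no array and the 19.6% detected on all 6 could not have it. With miR-351*, 4 of the 10 arms of the cluster's hairpins that the array carries were among these 17, 3 of them members. Detection on 1 non-loading and 2 loading arrays thus followed the number of miRNAs detected per array, and the part of the arrays' sensitivity in it was not tested. The call is made per miRNA, and it could be positive where no spot was well above background, as for miR-503 and miR-450a on loading array 3.

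**Figure D5:**
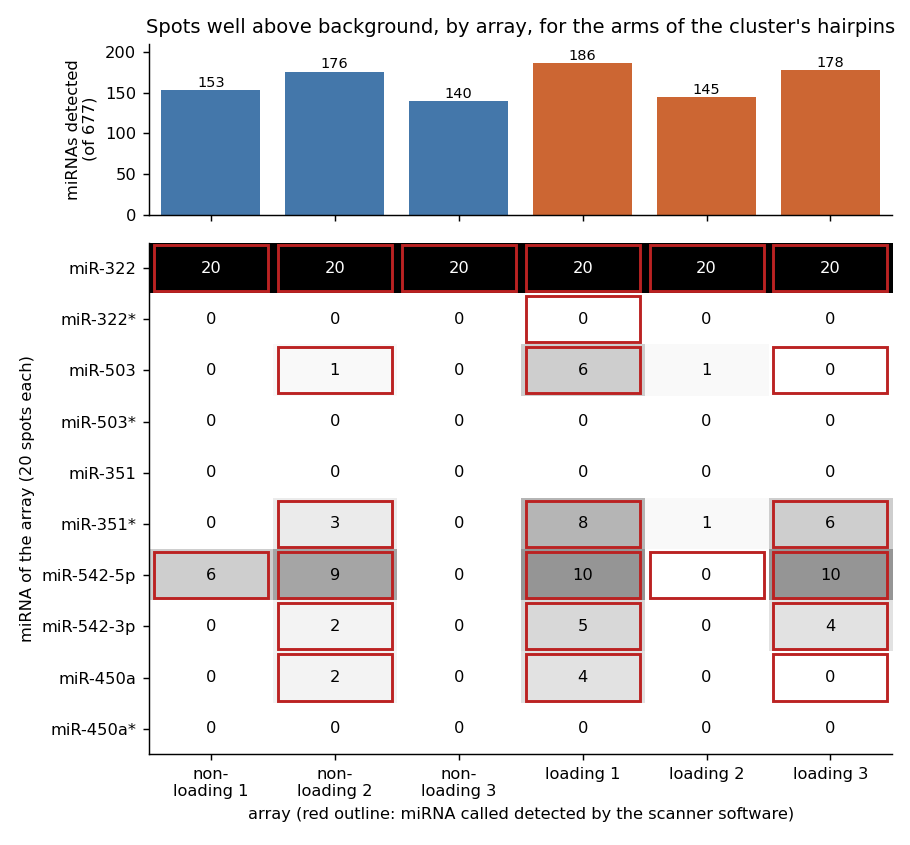
Top, number of miRNAs called detected on each of the 6 arrays; bottom, number of the 20 spots well above background for each of the 10 arms of the cluster's hairpins on the array, with a red outline where the scanner software called the miRNA detected. miR-322 had 20 of 20 spots on each array, and miR-503, miR-542-3p, miR-450a and miR-351* were called detected on non-loading array 2 and loading arrays 1 and 3, the arrays with 176, 186 and 178 detected miRNAs.

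Among the other arms of the same hairpins, miR-542-5p and miR-351* had signal. These 2 are shown because they are the partner strands of members, with the seed in capitals.
miR-542-5p: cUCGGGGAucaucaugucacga
miR-351*: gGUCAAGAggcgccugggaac

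miR-542-5p was detected on 5 arrays, all but non-loading array 3. It passed the detection filter through the loading group alone, so its comparison is a description and supports no difference. Its log2 levels were -4.46, -4.85 and -5.74 without loading, the last set to the floor, and -4.65, -4.61 and -4.49 with loading. Non-loading array 1 was the highest of the 6, so the groups overlapped. The means were -5.02 ± 0.66 (SD, n = 3) without and -4.58 ± 0.08 (SD, n = 3) with loading, which differ by 0.44 (standard error 0.32, 95% interval -0.33 to 1.21, limma adjusted p = 0.724; exact permutation test, two-sided p = 0.4). The size of this difference depended on single arrays and on the processing, and its sign on the processing. It was 0.06 without non-loading array 3 and 0.76 without non-loading array 1, which leaves 1 measured non-loading value beside the floor. It was -0.59 with normexp, 0.038 when outlying background values were replaced first, 0.11 with averaged log2 probe signals or with the slide column as a block, and 1.61 with the negative-control mean subtracted, a setting chosen after the data were seen. The brightest probe alone gave 0.24 and quantile normalization 0.25. In column 1 of the slide, loading array 2 minus non-loading array 1 was -0.15.

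The brighter probe of miR-351* (A_26_P00003237), the partner strand of the undetected miR-351, gave 1.58%, 2.58% and 1.41% without loading and 3.23%, 3.05% and 3.59% with loading. On this probe all loading arrays were above all non-loading arrays. Over summed and floored signals this order held for 12.8% of the miRNAs tested, a set that does not include miR-351*. For the summed, floored signal of both probes the groups overlapped in 4 of 14 other settings, and the direction turned with normexp. The means were 1.86% ± 0.631 (SD, n = 3) without and 3.29% ± 0.275 (SD, n = 3) with loading (exact permutation test, two-sided p = 0.1), and no fold is read from them, since the non-loading values came close to the negative-control spots. The dimmer probe (A_26_P00003238) gave 0.917%, 0.943% and 0.0534% without loading and 1.21%, 0.937% and 1.72% with loading. Its groups overlapped (exact permutation test, two-sided p = 0.2). Detection was called on 1 array of the non-loading group and 2 of the loading group, with 18 of 60 spots well above background. With the reported detection filter, miR-351* was not among the miRNAs tested with limma. When miRNAs detected on at least 1 array were tested, its limma unadjusted p was 0.0202 and its adjusted p 0.412. miR-322* was called detected on loading array 1 alone with 0 of 120 spots well above background, and miR-503* and miR-450a* were detected on 0 arrays.

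Across the 6 arrays, the miRNAs whose log2 levels were most like those of miR-322 were miR-222 (Pearson's r of 0.977), miR-31 (0.954) and miR-107 (0.951), none of them from the cluster. These correlations are a description over 6 arrays that share the 75th percentile as scale and include the difference between the groups. The log2 changes of the 3 were 0.30 (standard error 0.08), 0.20 (standard error 0.07) and 0.09 (standard error 0.07), with limma adjusted p of 0.451, 0.486 and 0.724. Between members, the brighter probes of miR-322 correlated at 0.716 with miR-542-3p, at 0.588 with miR-503 and at 0.367 with miR-450a over the same 6 arrays. The dim members correlated with each other at 0.803 (miR-503 and miR-542-3p), 0.810 (miR-503 and miR-450a) and 0.537 (miR-542-3p and miR-450a), and the number of miRNAs detected per array was high on the same arrays.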

How the data were processed

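Total RNA of 3 non-loading and 3 mechanical loading samples was measured on Agilent rat miRNA arrays (v16.0), on 1 slide by the scan names. The authors deposited the background-subtracted intensity of each spot (Agilent Feature Extraction 10.7.3.1, annotation rn4), not scaled between arrays, and the deposited matrix held the same values (largest difference 0).

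Control spots and outlier-flagged spots (2.93% to 4.17%) were left out, and 0 spots were saturated. Spots were averaged per probe. Arrays were scaled by the 75th percentile of the 173 probes that each of the 6 arrays detected, with at least 50% of a probe's spots well above background. Probes were summed per miRNA, a floor was set at the 1st percentile of detected signals (1.87%, or -5.74 on the log2 scale; 5 of 888 tested values) and log2 was taken. Where each array of 1 group or both called a miRNA detected, which held for 148 miRNAs, the groups were compared with limma 3.58.1 (R 4.3.3) with Benjamini-Hochberg adjustment, threshold 0.05. Single values were compared by exact permutation.

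The members, the lists of seed relatives and cell markers, and the tests were chosen with earlier results of these data known. The text names the members, the other arms of their hairpins, the seed relatives, the markers and the 3 miRNAs most like each tested member. Comparisons of miR-322 with other tested members were planned and could not be made, since no other member passed the filter. The limma step was checked on simulated data with independent noise for each miRNA, which hold no shift shared by the miRNAs of an array. Sequences came from RefSeq (GRCr8), and all 16 names looked up were matched.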

Additional observations from a re-analysis of the deposited data

How the results depend on the processing

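Changes are log2, loading minus non-loading. The change of miR-322 had the same sign in 19 of 20 other settings. Leaving aside the 1 chosen after seeing the data, it ran from -0.27, with normexp, to 0.23 (limma adjusted p 0.220 to 0.996), with no overlap of the groups in 14 of 19. With an array left out it ran from 0.17 to 0.25 (limma adjusted p 0.377 to 0.842) without overlap, and its unadjusted p was under 0.05 only without non-loading replicate 2. Normexp moved the median of all miRNAs from 0.06 to -0.45 and scaling over all probes moved it to -0.09.

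For the dim members the group difference of the floored levels, which is no measured fold, 0.12 for miR-503, 0.26 for miR-542-3p, 0.13 for miR-450a and 0 for miR-351, depended on the floor and the background. With normexp it was -0.604, -0.605, -0.603 and -0.637 in this order. Normexp after replacing outlying background gave 0.031 for miR-503, 0.025 for miR-542-3p, 0.025 for miR-450a and 0.027 for miR-351. For miR-450a, quantile normalization gave -0.0997, scaling over all probes -0.073, Agilent's total gene signal 0.283 and leaving out loading replicate 2 gave 0.268. Averaging log2 probe signals gave 0 for miR-503 and miR-450a and 0.012 for miR-542-3p. For miR-503, quantile normalization gave 0.19 and the total gene signal 0.25, and the latter gave 0.40 for miR-542-3p. Arrays centred on their median gave 0.0071 for miR-351. The lowest detected signal as floor gave 0.73, 0.60 and 0.28 for miR-503, miR-542-3p and miR-450a, and outlier spots kept gave 0.67 for miR-503. Subtracting the mean of the negative controls, chosen after seeing the data and with the lowest positive signal as floor, gave 1.03, 1.39 and 0. With an array left out the ranges were 0 to 0.21 for miR-503, 0.094 to 0.467 for miR-542-3p, 0.049 to 0.268 for miR-450a and 0 for miR-351. The groups of miR-542-3p and miR-450a overlapped except without loading replicate 2 (limma adjusted p of 0.519 and 0.524 there). With miRNAs detected on at least 1 array tested, the limma adjusted p of miR-503, miR-542-3p and miR-450a was 0.716, 0.690 and 0.703. For these shifts the cause was not tested.

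The count of miRNAs with an unadjusted p under 0.05, 14 as reported, was 0 with normexp, 8 with outlying background values replaced, 1 with all probes, 4 without scaling, 8 with the total gene signal and 7 with the slide row as a block. With an array left out it ran from 6 to 17, at 7 without loading replicate 1 and at 6 when loading replicate 3 was left out. The adjusted count was 0 as reported and with each array left out. It was 2 with quantile normalization, averaged log2 probe signals, the brightest probe alone, either other detection filter, outlier spots kept, the methods' Student–Newman–Keuls test, trend and robust, array weights and the negative-control mean subtracted.

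The labels do not say whether replicate numbers pair the samples. Between loading and non-loading arrays with the same number, the deviations correlated at -0.69, -0.47 and 0.11. These values, from only 3 arrays per group, can neither show nor exclude a pairing. With the replicate block, miR-322 changed by 0.20 (limma adjusted p = 0.850) and 6 miRNAs had an unadjusted p under 0.05.

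Signs turned in these cases. With normexp miR-542-5p was at -0.59, miR-15b at -0.041, miR-16 at 0.21, and miR-125a-5p at -0.15. With outlying background values replaced, miR-195 was at 0.0019. For miR-15b, quantile normalization gave -0.0030, scaling over all probes -0.069, Agilent's total gene signal -0.017, the slide column as a block -0.0011 and leaving out non-loading replicate 3 gave -0.016. Scaling over all probes gave -0.046 for miR-125b-5p. The floored difference of miR-351*, run after seeing the data, was 0.84. It was -0.57 with normexp, 0.081 with outlying background replaced, 0.13 with averaged log2 probe signals and 4.50 with the negative-control mean subtracted. Leaving out an array gave 0.60 to 1.03, and the groups did not overlap in 10 of 14 settings. Of the other values of the seed relatives, miR-542-5p and miR-351*, 186 kept their sign and their side of the threshold or moved by less than the SD.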
